A study of Mus musculus with 18 samples.

Results

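Atp6v0d2, Moxd1, Ostn and Fhod3 are 4 of the 16281 genes tested in the caudal corpus callosum of cuprizone-fed mice. They were chosen by their log2 values on the arrays of 12 weeks, which were lower in Trem2 knockout than in wild-type tissue. The caudal corpus callosum is a large white matter tract, and cuprizone (CPZ) binds copper and, when fed, damages oligodendrocytes so that myelin is lost. RNA from each of 18 samples was read on 1 one-colour oligonucleotide array. All mice were C57BL/6 and all ate a diet with 0.2% CPZ, wild-type mice included. The groups were TREM2-/- (KO) at 12 weeks with 6 arrays, Wild_Type (WT) at 12 weeks with 5, KO at 6 weeks with 3 and WT at 6 weeks with 4. The labels leave unclear whether the weeks count age or feeding, and no array of normally fed mice was analysed here. The deleted exons of Trem2 are not given in the sources used here. The labels do not tie arrays to animals. The p-values therefore rest on array-to-array spread, of which an unknown share may be technical.

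TREM2 is a lipid-sensing receptor on the surface of microglia, the resident macrophages of the brain, and signals through the adaptor TYROBP. In demyelinated white matter microglia take up myelin debris and switch on genes of lipid handling and lysosomes. Atp6v0d2 encodes the d2 form of a subunit of the vacuolar proton pump (V-ATPase), which acidifies lysosomes, and is known from osteoclasts and macrophages, where it also takes part in cell fusion. Moxd1 encodes an endoplasmic reticulum protein related to dopamine beta-hydroxylase, a copper-dependent monooxygenase. Ostn encodes osteocrin, also called musclin, a peptide secreted by bone and muscle that binds the natriuretic peptide clearance receptor. Fhod3 encodes a formin, which assembles actin filaments and is known best from heart muscle.

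The mean of Atp6v0d2 was lower in KO at both stages, but at 6 weeks the genotypes overlapped and the difference did not pass the test (limma, adjusted p = 0.572). Moxd1 and Ostn had their highest group means in WT at 12 weeks and low means in both genotypes at 6 weeks, near background for Ostn. The mean of Fhod3 was lower in KO at 12 weeks, and at 6 weeks the genotypes overlapped. The choice rested on the 12-week arrays, so their KO and WT values at 12 weeks, and the differences between stages, are given as descriptions with no test. The choice was not made by the 6-week values, but earlier results of these data were known at that point. KO was tested against WT at 6 weeks. The limma test there pools its spread over all groups, 12-week arrays included, so it is not fully independent of the choice. Trem2 itself averaged 5.27 ± 0.30 in KO and 7.36 ± 0.48 in WT at 12 weeks, and 5.80 ± 0.34 in KO and 7.29 ± 0.83 in WT at 6 weeks (log2, SD, over 7 probe sets), lower in KO as labelled. The difference passed at 12 weeks (limma, adjusted p = 0.00251) and not at 6 weeks (adjusted p = 0.247). Signal remained in KO, where the brightest Trem2 probe set averaged 9.12 at 12 weeks and 9.61 at 6 weeks, against 11.01 and 11.13 in WT.

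**Figure D1:**
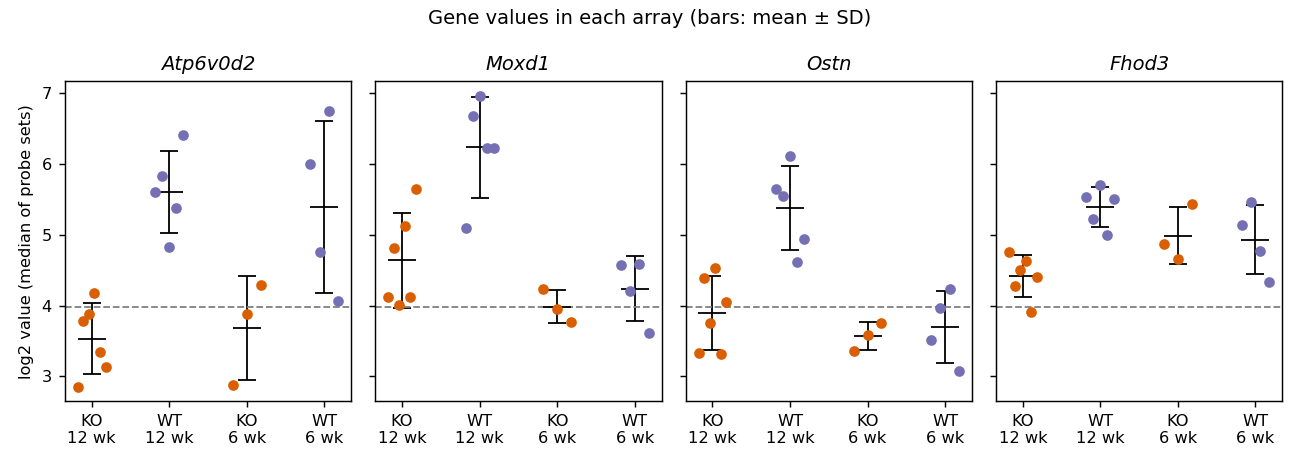
Log2 value of each of the 4 genes (the median of its probe sets) in every array, by genotype and stage, with the group mean ± SD as bars and the background level of 3.98 as a dashed line. At 12 weeks WT arrays of Atp6v0d2 sat between 4.82 and 6.41, above all KO arrays of that stage, while Moxd1 and Ostn had their highest mean in WT at 12 weeks, with 2 KO arrays of Moxd1 above the lowest WT array.

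Values are log2 signals, taken for each gene as the median over its probe sets. As a rough background, 1207 genes of olfactory and vomeronasal receptors and hair keratin-associated proteins, which white matter is not known to use, were taken. Their median level was 2.53 and their 95th percentile 3.98, and a group mean under 3.98 is called near background. Probes differ in how strongly they bind, so this level is approximate for any single gene. By it Atp6v0d2 in KO at both stages and Ostn in all groups except WT at 12 weeks were near background. Moxd1 in KO at 6 weeks (3.98) stood at that level. Folds against such a mean have an uncertain size. All 4 genes passed the filter on dim genes (a mean over all arrays above 3.41), and each of their group means lay above 3.41 too, so none passed through its WT values alone.

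Atp6v0d2 was low in every KO array at 12 weeks, with a lowest value of 2.85, a median of 3.56 and a highest of 4.18. The WT arrays of 12 weeks stood at 5.60, 5.83, 4.82, 5.38 and 6.41. The genotypes did not overlap, and 5 of the 6 KO arrays lay under the background level. The difference was −2.08 ± 0.40 (log2, SE), or 4.22-fold lower in KO. It was the third lowest of all genes tested at that stage, after Trem2 and 1 other gene. A low rank follows from the choice of the gene by these same values, so it is only a description.

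At 6 weeks the KO arrays of Atp6v0d2 had values of 2.87, 3.88 and 4.30, and the WT arrays had 6.00, 4.75, 6.75 and 4.06. One KO array lay above the lowest WT array, and the WT arrays spread over more than those of any other group of this gene. Atp6v0d2 was lower by 1.71 on the log2 scale in KO (−1.71 ± 0.51, SE; 95% interval −2.78 to −0.64), or 3.27-fold. This did not pass after adjustment over all genes (limma, adjusted p = 0.572; unadjusted p = 0.00324), and by exact permutation of the 7 arrays, two-sided, p was 0.114, where 35 arrangements allow 0.0286 at the smallest. The SE, interval and limma p use the pooled spread of all 4 groups, which was smaller at 12 weeks than at 6. The permutation uses the 7 arrays alone. Without WT replicate 4 the difference was −2.15 (limma, adjusted p = 0.142), and without WT replicate 3 it was −1.26. Of the 18 arrays, KO replicate 2 and WT replicate 4 of 6 weeks had the lowest weights (0.446 and 0.503), that is, they departed most from their groups, and without both the difference was −2.25 (adjusted p = 0.385). The level moved little with stage: 5.61 ± 0.58 at 12 weeks against 5.39 ± 1.21 at 6 weeks in WT, and 3.53 ± 0.50 at 12 weeks against 3.68 ± 0.73 at 6 weeks in KO. The order of the 4 groups was WT at 12 weeks, WT at 6 weeks, KO at 6 weeks and KO at 12 weeks, and the 2 groups of 1 genotype lay within their spread.

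Single probe sets, each of which reads a short stretch of a gene, gave the same direction for Atp6v0d2. All 9 were lower in KO at 12 weeks (from −3.65 to −0.24) and all 9 at 6 weeks (from −2.53 to −0.72). For 3 of them no KO array reached the lowest WT array at 12 weeks, and the share over all probe sets was not computed. The 12-week direction of probe sets follows largely from the choice of the genes, here and for the genes below. Probe sets of 1 gene also share the same arrays, so their number adds no independent support. The mean over all arrays of 5 probe sets was under the probe-set background level of 4.54. The gene value from the other 4 gave a difference of −1.15 at 12 weeks and −1.28 at 6 weeks, so the size at 12 weeks depends on dim probe sets.

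**Figure D2:**
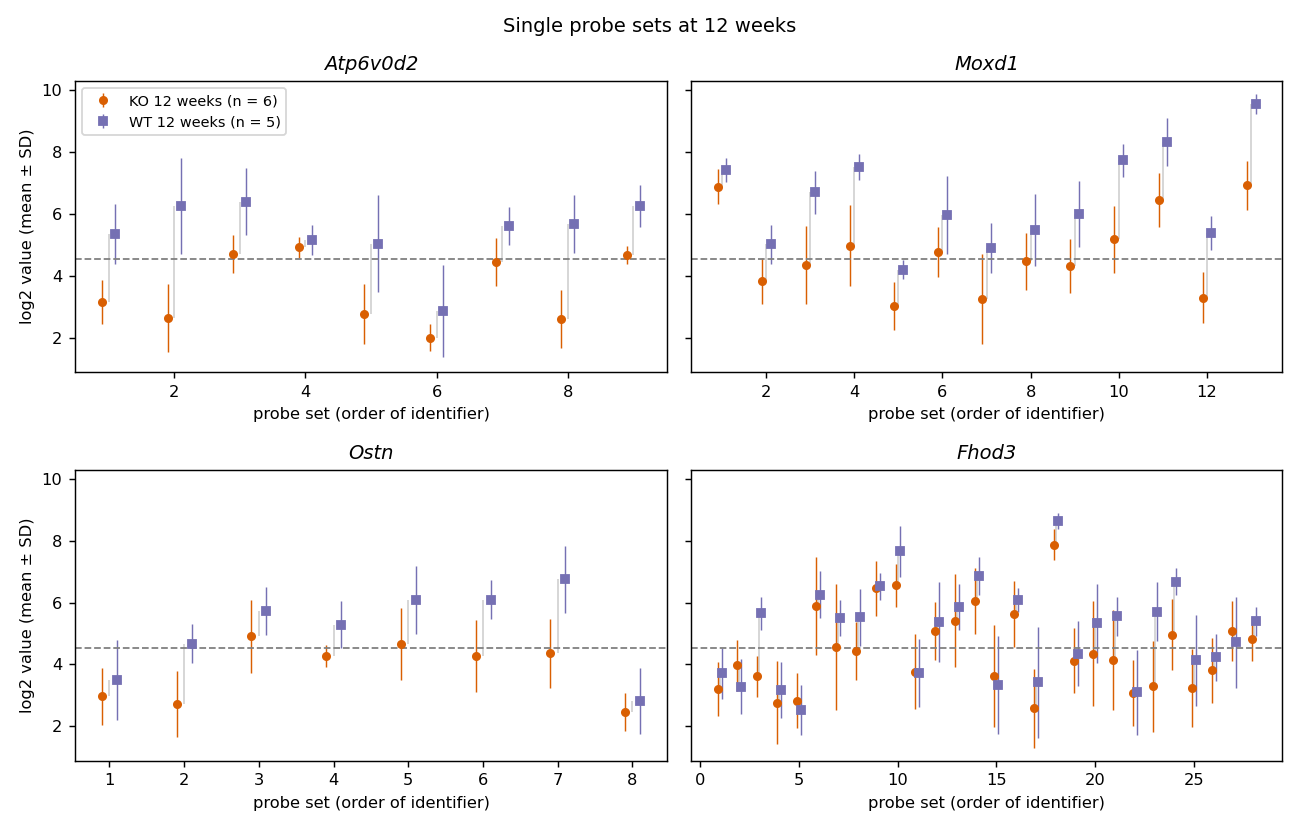
Mean log2 value ± SD of each probe set at 12 weeks in KO (circles, n = 6) and WT (squares, n = 5), in the order of the probe-set identifiers, with the probe-set background level of 4.54 as a dashed line. All probe sets of Atp6v0d2, Moxd1 and Ostn were lower in KO, whereas 23 of the 28 of Fhod3 were. These arrays chose the genes, so the direction is a description.

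Moxd1 lies on chromosome 10. The 250 bases before its start, chr10:24223267-24223516 on the plus strand of GRCm38.p6, are shown because Moxd1 was the 1 gene of the 4 that was matched in the table of RefSeq promoters used here. Capitals mark the matches found.
Moxd1 upstream: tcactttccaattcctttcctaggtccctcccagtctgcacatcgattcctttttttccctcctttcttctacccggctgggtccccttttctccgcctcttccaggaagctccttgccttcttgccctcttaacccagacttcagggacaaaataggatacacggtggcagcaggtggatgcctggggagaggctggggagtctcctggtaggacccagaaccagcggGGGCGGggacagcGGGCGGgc

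That stretch was searched on both strands for short motifs, and the matches did not overlap. The GC box GGGCGG, bound by Sp factors, was found 2 times, at −21 and −8 from the start, and occurs in 32.7% of 32851 windows of the same length before other gene starts. The E-box CACGTG and the M-box TCATGTG of MITF and its relatives, the PU.1 site GAGGAAGT, the AP-1 site TGANTCA, the cAMP response element TGACGTCA and the TATA box TATAAA had no match in this window. These occur in 6.02%, 3.25%, 2.44%, 6.75%, 1.55% and 12.4% of the windows in that order. Its GC content was 58.4%, against a median of 52.4%. Atp6v0d2 lies on chromosome 4, Ostn on chromosome 16 and Fhod3 on chromosome 18.

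The KO arrays of Moxd1 at 12 weeks ran from 4.00 over a median of 4.46 to 5.65. The WT arrays of 12 weeks had 5.09, 6.67, 6.96, 6.23 and 6.23. The groups overlapped, since 2 KO arrays lay above WT replicate 1. Moxd1 was lower in KO by −1.60 ± 0.33 (log2, SE), or 3.03-fold. At 6 weeks the KO arrays had 4.23, 3.96 and 3.77, and the WT arrays had 4.57, 4.20, 4.58 and 3.61, a range that reaches from below the gene background level of 3.98 to above it. Single probe sets were brighter at that stage, such as the first in order with 7.41 in KO and 7.25 in WT. The difference at 6 weeks was −0.26 ± 0.41 (SE; 95% interval −1.11 to 0.60; limma, adjusted p = 0.999; exact permutation p = 0.400).

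In WT, Moxd1 averaged 6.24 ± 0.71 at 12 weeks against 4.24 ± 0.46 at 6 weeks (SD, n = 5 and 4), a difference of 2.00 ± 0.36 (SE), or 3.99-fold. The WT arrays of 12 weeks were among those that chose the gene, so the size of this difference is a description. In KO it averaged 4.64 ± 0.67 at 12 weeks against 3.98 ± 0.23 at 6 weeks, a difference of 0.65 ± 0.38 (SE). The WT mean of 12 weeks stood apart from the other 3 groups, and KO at 12 weeks, WT at 6 weeks and KO at 6 weeks followed within about their spread.

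All 13 probe sets of Moxd1 were lower in KO at 12 weeks, from −2.63 to −0.54, and 10 of 13 at 6 weeks, from −1.14 to 1.15. The brightest averaged 6.93 ± 0.80 in KO and 9.55 ± 0.32 in WT at 12 weeks (SD), with no overlap between genotypes, and 6.59 ± 1.39 in KO and 6.91 ± 1.17 in WT at 6 weeks. With this probe set the difference at 12 weeks was −2.63, against −1.60 from the median of the probe sets. The probe set first in order behaved differently, with 6.89 ± 0.57 in KO and 7.42 ± 0.37 in WT at 12 weeks and hardly any difference between stages in WT (0.17).

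Ostn resembled Moxd1. Its KO arrays at 12 weeks had a lowest value of 3.32, a median of 3.90 and a highest of 4.53. The WT arrays of 12 weeks had 5.64, 5.55, 6.11, 4.62 and 4.94. All WT arrays lay above all KO arrays, by a small margin, and the difference was −1.48 ± 0.28 (log2, SE), or 2.78-fold lower in KO.

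At 6 weeks the KO arrays of Ostn had 3.36, 3.58 and 3.75, and the WT arrays had 3.51, 3.96, 4.23 and 3.08. Only 1 of these 7 values exceeded the background level. The difference at 6 weeks was −0.13 ± 0.36 (SE; 95% interval −0.87 to 0.61; limma, adjusted p = 0.999; exact permutation p = 0.714). In WT, Ostn averaged 5.37 ± 0.59 at 12 weeks against 3.70 ± 0.51 at 6 weeks, a difference of 1.68 ± 0.31 (SE), or 3.20-fold. In KO the difference between stages was 0.33 ± 0.33 (SE), with 3.89 ± 0.52 at 12 weeks and 3.57 ± 0.20 at 6 weeks. The WT mean of 12 weeks stood apart, and the other 3 groups lay within their spread.

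All 8 probe sets of Ostn were lower in KO at 12 weeks, from −2.40 to −0.36, and 4 of 8 were at 6 weeks. No single probe set separated the genotypes in every array at 12 weeks. The probe set with the highest mean over all arrays had 4.91 ± 1.18 in KO and 5.72 ± 0.77 in WT at 12 weeks, a difference of −0.81, against −1.48 from the median of the probe sets.

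Fhod3 had the smallest difference of the 4 genes. Its KO arrays at 12 weeks ran from 3.91 over a median of 4.45 to 4.76, and the WT arrays had 5.53, 5.23, 5.70, 4.99 and 5.50. The genotypes did not overlap, and the difference was −0.97 ± 0.21 (log2, SE), or 1.97-fold lower in KO. At 6 weeks the KO arrays had 4.87, 4.65 and 5.43 and the WT arrays 5.14, 5.47, 4.77 and 4.33, which overlapped throughout. The difference there was 0.06 ± 0.27 (SE; 95% interval −0.50 to 0.62; limma, adjusted p = 0.999; exact permutation p = 0.857).

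Between stages the differences of Fhod3, 12 over 6 weeks, were −0.57 ± 0.25 (SE) in KO and 0.46 ± 0.24 in WT. The direction in KO depended on the probe sets: with those above background the differences were 0.12 in KO and 0.24 in WT, and with the mean of all probe sets −0.19 in KO and 0.42 in WT. The KO mean was 4.41 ± 0.30 at 12 weeks against 4.99 ± 0.40 at 6 weeks, and the WT mean was 5.39 ± 0.28 at 12 weeks against 4.93 ± 0.49 at 6 weeks (SD). WT at 12 weeks was highest and KO at 12 weeks lowest, with the groups of 6 weeks between them and not apart from each other. Of the 28 probe sets 23 were lower in KO at 12 weeks, from −2.42 to 0.70, and 15 at 6 weeks. The brightest averaged 7.88 ± 0.50 in KO and 8.65 ± 0.25 in WT at 12 weeks. The genotypes overlapped in it, with KO replicate 4 at 8.85 and WT replicate 2 at 8.27. For 1 of the 28 probe sets no KO array reached the lowest WT array at 12 weeks. The mean over arrays of 13 probe sets was under the background level. Without them the gene difference was −0.48 at 12 weeks, and with the mean of all probe sets it was −0.61.

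At 12 weeks 3 of the 4 genes had every KO array below every WT array, as did 0.762% of all genes, and at 6 weeks 0 of the 4 did, against 2.36% of all genes. The limma test of KO against WT called 0.43% of genes at 12 weeks, 0.0737% lower and 0.356% higher. At 6 weeks it called 0.043%, all of them higher (0% lower). None of the 4 genes was called at 6 weeks, and 1 (Atp6v0d2) had an unadjusted p under 0.05. Of all genes 5.44% had one at 6 weeks, 2.17% lower and 3.26% higher in KO. At 12 weeks 11.1% did, 4.23% lower and 6.87% higher, and the counts by unadjusted p in the lists that follow stand beside these shares. The 12-week counts follow from how the genes were chosen.

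Sex, taken from the levels of Xist and Y genes, and the 2 runs of sample accessions were not balanced at 12 weeks: in the first run the KO arrays were male and the WT arrays female, and in the second the reverse. Within the first and the second run the differences of KO from WT at 12 weeks were −2.21 and −1.98 for Atp6v0d2, −1.57 and −1.51 for Moxd1, −1.78 and −1.25 for Ostn and −0.87 and −1.08 for Fhod3. Among males and among females they were −2.03 and −2.16 for Atp6v0d2, −1.40 and −1.63 for Ostn and −0.89 and −1.06 for Fhod3. For Moxd1 they were −2.16 among males and −0.92 among females, where KO and WT overlapped. Each sex of a genotype came from a single run at 12 weeks, so a sex difference cannot be told apart from a shift between runs. Moxd1 averaged 4.31 in KO and 5.88 in WT in the first run at 12 weeks, and 4.96 and 6.47 in the second. At 6 weeks Fhod3 was at −0.54 among males and at 0.88 among females, where KO had 1 array. All arrays of 6 weeks were in the first run, so the differences between stages are partly mixed with run. In the first run alone the WT mean of Moxd1 was 5.88 at 12 weeks (n = 2) against 4.24 at 6 weeks (n = 4). That of Ostn was 5.60 against 3.70.

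The V-ATPase was examined as the complex to which Atp6v0d2 belongs. Of 24 other subunit and accessory genes 23 were tested, and 0 passed in either direction at 12 or 6 weeks in limma, with 3 higher and 1 lower in KO at 12 weeks and 0 at 6 weeks by an unadjusted p under 0.05 (11.1% and 5.44% of all genes). Their median difference was 0.06 at 12 weeks and 0.07 at 6 weeks, beside 0.017 and −0.0029 over all genes, and single genes ran from −0.56 to 0.51 at 12 weeks. Atp6v0d1, which encodes the widely used d1 form of the same subunit, averaged 7.21 ± 0.38 in KO and 7.32 ± 0.50 in WT at 12 weeks, a difference of −0.11 ± 0.22 (SE). At 6 weeks it was 7.03 ± 0.24 in KO and 6.89 ± 0.22 in WT. The smallest p at 12 weeks belonged to Atp6v1e1 (0.49 ± 0.16, adjusted p = 0.221), of the ATP-hydrolysing sector, Atp6v1g3 (−0.56 ± 0.24) and Atp6v0e (0.51 ± 0.22). At 6 weeks it belonged to Tcirg1 (0.58 ± 0.41), the a3 subunit of osteoclast and macrophage pumps, Atp6v1a (−0.36 ± 0.27) and Atp6v1c2 (0.30 ± 0.24).

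**Figure D3:**
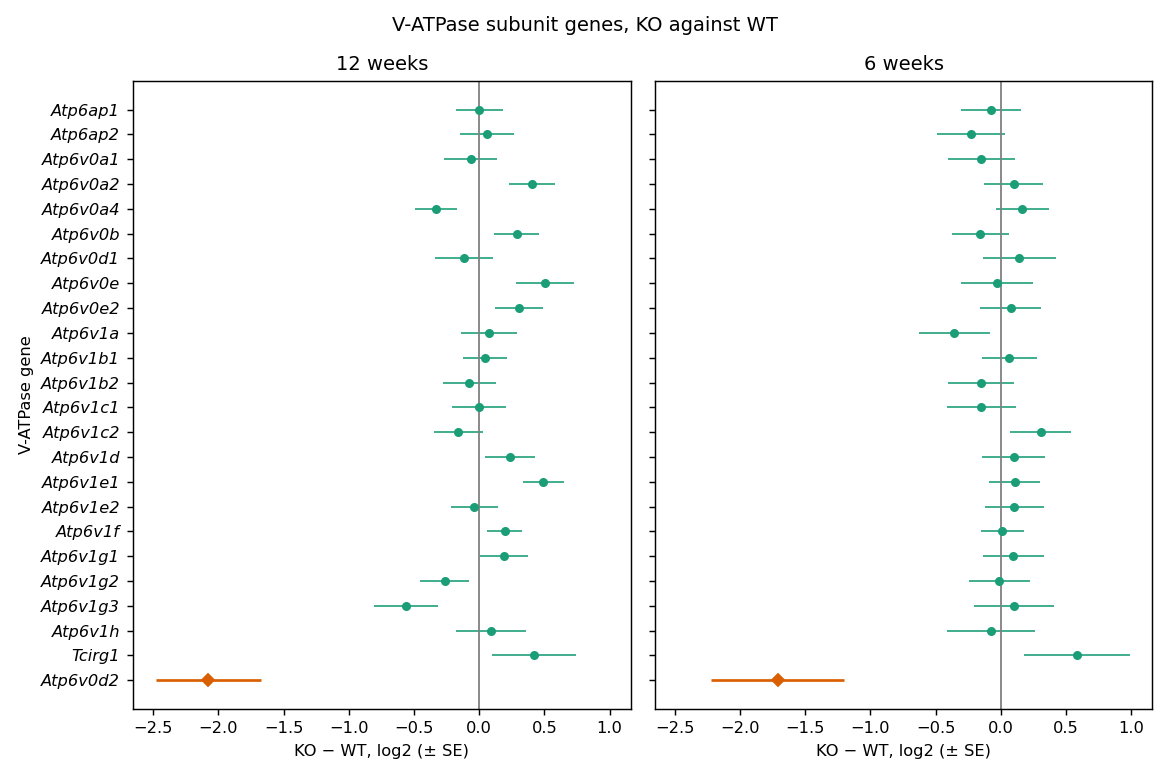
Log2 difference of KO from WT with its SE for Atp6v0d2 (diamond, bottom) and 23 other V-ATPase genes (circles) at 12 and at 6 weeks. The other genes lay between −0.56 and 0.51 at 12 weeks and between −0.36 and 0.58 at 6 weeks, against −2.08 and −1.71 for Atp6v0d2.

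Genes of osteoclasts and of macrophage fusion, cells in which Atp6v0d2 is known, did not pass either (19 tested of 20, median 0.14 at 12 weeks and −0.07 at 6 weeks). By an unadjusted p under 0.05, 2 were higher and 2 lower at 12 weeks (all genes 11.1%) and 1 was higher at 6 weeks (all genes 5.44%). Nfatc1, the transcription factor of osteoclast formation, stood at 0.71 ± 0.20 at 12 weeks (adjusted p = 0.153), Calcr, the calcitonin receptor, at −0.46 ± 0.16 (adjusted p = 0.259) and the tetraspanin gene Cd9 at 0.68 ± 0.23 (adjusted p = 0.263). At 6 weeks the integrin gene Itgb3 (0.74 ± 0.24), the metalloproteinase gene Mmp9 (−0.34 ± 0.22) and Tcirg1 had the smallest p. The fusion gene Dcstamp was under the filter. Mitf, Tfeb and Tfe3, which encode transcription factors of lysosomal genes, differed by 0.29 ± 0.21, 0.42 ± 0.24 and 0.36 ± 0.20 at 12 weeks and by −0.23 ± 0.26, −0.26 ± 0.30 and 0.19 ± 0.26 at 6 weeks. None of the 3 passed or had an unadjusted p under 0.05.

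Of 9 other genes of copper monooxygenases and copper delivery 7 were tested and 0 passed, with 0 under an unadjusted p of 0.05 at either stage (median 0.18 at 12 weeks and −0.24 at 6 weeks). Dbh and Moxd2, the closest relatives of Moxd1, were under the filter. Pam, a copper enzyme that amidates peptides, averaged 7.24 ± 0.15 in KO and 7.56 ± 0.26 in WT at 12 weeks (−0.32 ± 0.17, SE; adjusted p = 0.490) and 7.34 ± 0.18 in KO and 7.11 ± 0.36 in WT at 6 weeks. The copper chaperone gene Atox1 (0.34 ± 0.20) and the copper pump gene Atp7a (0.38 ± 0.31) followed at 12 weeks, and at 6 weeks Slc31a2 (−0.47 ± 0.28), which acts in copper transport, and Atp7b (−0.26 ± 0.28).

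In the natriuretic peptide pathway, in which osteocrin acts, 11 other genes were tested and 0 passed, with 0 under an unadjusted p of 0.05 at either stage (median 0.03 at 12 weeks and −0.07 at 6 weeks). Npr3, the clearance receptor to which osteocrin binds, was measured at 5.33 ± 0.62 in KO and 5.33 ± 0.80 in WT at 12 weeks, a difference of 0.00 ± 0.37 (SE). Nppc, the C-type peptide, was at −0.47 ± 0.28 at 12 weeks and 0.44 ± 0.36 at 6 weeks, Nppa at 0.33 ± 0.19 and 0.08 ± 0.24, and Nppb at 0.06 ± 0.22 and 0.06 ± 0.27. Corin, the protease that matures the atrial peptide, was at −0.38 ± 0.18 at 12 weeks and −0.29 ± 0.23 at 6 weeks, and the receptor gene Npr2 at −0.26 ± 0.25 at 6 weeks.

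Of 13 other formin genes 0 passed at either stage (median 0.12 at 12 weeks and 0.22 at 6 weeks). By an unadjusted p under 0.05, 1 was lower at 12 weeks (all genes 4.23% lower) and 2 were higher at 6 weeks (all genes 3.26% higher). Fhod1, the nearest relative of Fhod3, averaged 4.53 ± 0.46 in KO and 4.47 ± 0.22 in WT at 12 weeks, a difference of 0.06 ± 0.25 (SE), and 4.54 ± 0.74 in KO and 4.33 ± 0.38 in WT at 6 weeks. Fmn1 (−0.40 ± 0.17), Daam2 (0.45 ± 0.23) and Grid2ip (0.19 ± 0.17) had the smallest p at 12 weeks, and Diaph3 (0.64 ± 0.25), Fmnl3 (0.83 ± 0.33) and Daam2 (0.52 ± 0.29) at 6 weeks.

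The genes whose values ran most like each of the 4 were ranked by Pearson's correlation over the 18 arrays, which share tissue and processing and include the genotype difference that chose the 4 genes. The correlation after subtraction of the 4 group means is given beside it. For Atp6v0d2 these were the integrin gene Itgax (0.94, and 0.88 within groups), Cybb of the phagocyte oxidase (0.88, and 0.73), Trem2 (0.88, and 0.59), the lipoprotein lipase gene Lpl (0.86, and 0.63) and Nradd (0.83, and 0.82). In KO, Itgax was near background at 12 weeks (3.45) and at 6 weeks (3.43), as was Atp6v0d2. So was Cybb in KO at 12 weeks (3.86). The WT arrays of 6 weeks kept the same order in Atp6v0d2 and Itgax, with replicate 3 highest (6.75 and 7.96) and replicate 4 lowest (4.06 and 4.44). These arrays spread more than any other group in both genes (SD 1.21 and 1.47) and weigh heavily in the 0.88 within groups. The other groups alone were not examined.

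For Moxd1 they were Ostn (0.85, and 0.46 within groups), the amino sugar enzyme gene Uap1 (0.84, and 0.57), Wfs1, which encodes the endoplasmic reticulum protein wolframin (0.83, and 0.51), Rasl11b (0.80, and 0.57) and the glycolytic gene Tpi1 (0.77, and 0.67). For Ostn they were Moxd1, Uap1 (0.81, and 0.51), the corepressor gene Runx1t1 (0.80, and 0.72), Wfs1 (0.79, and 0.38) and Grip2, a glutamate receptor scaffold (0.79, and 0.71). Wfs1 averaged 7.11 in KO and 8.01 in WT at 12 weeks and 6.86 in KO and 6.97 in WT at 6 weeks. Like Moxd1 and Ostn it was highest in WT at 12 weeks, which follows largely from its ranking by likeness to them over all arrays.

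For Fhod3 the closest were Otud7a (0.87, and 0.83 within groups), a deubiquitinase gene, Rasal1 (0.84, and 0.80), a Ras regulator, Gramd1b (0.82, and 0.72), a sterol carrier, Dhx57 (0.81, and 0.63) and Prrxl1 (0.81, and 0.57), a homeobox gene. Among the 4 genes themselves the correlations within groups were 0.46 for Moxd1 with Ostn, 0.44 for Ostn with Fhod3, 0.32 for Atp6v0d2 with Ostn and between 0.12 and 0.15 for the other 3 pairs.

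**Figure D4:**
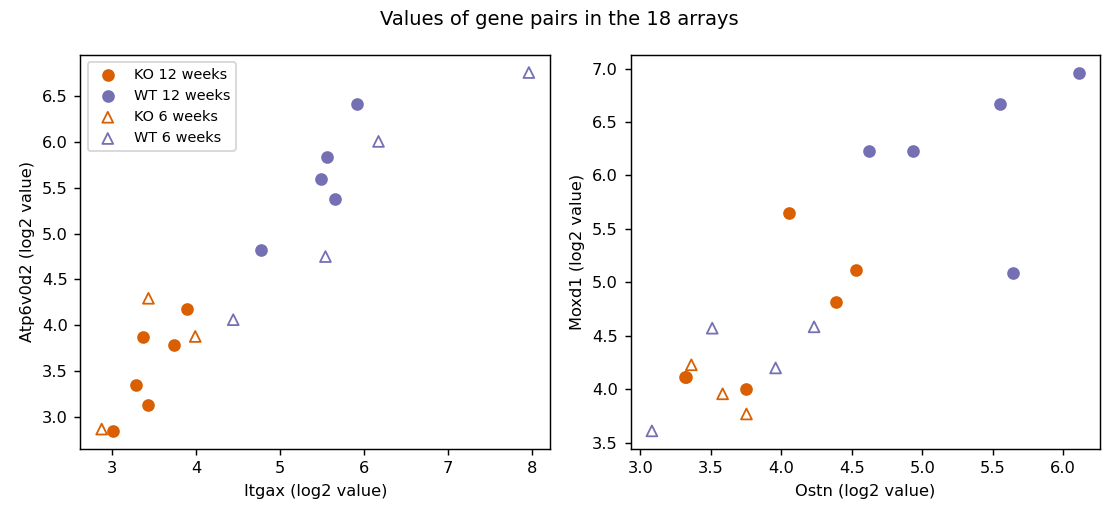
Log2 values in the 18 arrays of Atp6v0d2 against Itgax (left) and of Moxd1 against Ostn (right), by genotype and stage. Atp6v0d2 and Itgax ran together within groups (0.88) as well as over all arrays (0.94), whereas Moxd1 and Ostn had their highest means in WT at 12 weeks (0.85 over all arrays, 0.46 within groups). The WT arrays of 6 weeks spread most in Atp6v0d2 and Itgax and weigh heavily in the 0.88. The KO means of both genes were near background.

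In bulk tissue, fewer cells of a type and less RNA per cell cannot be told apart, so marker lists are given beside the 4 genes. Markers of microglia were higher in KO in 10 of 11 genes at 12 weeks (median 1.27, 4 rose and 0 fell) and in 10 of 11 at 6 weeks (median 1.14, 1 rose and 0 fell). Their mean log2 level ran from 7.77 to 8.64 in KO and from 6.89 to 7.36 in WT at 12 weeks, opposite to Atp6v0d2. Within groups its correlation with Atp6v0d2 was 0.49, and that of the mean of the astrocyte markers was 0.47. Markers of lipid-associated microglia were lower in KO in 9 of 13 genes at both stages, with medians of −0.11 at 12 weeks and −0.65 at 6 weeks. Of these Itgax fell at 12 weeks (−2.02 ± 0.41, SE; limma, adjusted p = 0.0355) and 0 of 13 passed at 6 weeks, where Itgax was at −2.60 ± 0.52 (adjusted p = 0.0878) and 6 were lower by an unadjusted p under 0.05. At 12 weeks 4 were lower and 2 higher by that measure, the higher ones being Cst7, a cystatin gene (1.20 ± 0.43, adjusted p = 0.288), and Cd9 (0.68 ± 0.23, adjusted p = 0.263). The KO means of Itgax were near background (3.45 at 12 weeks and 3.43 at 6 weeks), so the size of its differences is uncertain. The mean level of the 13 markers ran from 6.34 to 7.07 in KO and from 6.59 to 7.79 in WT at 12 weeks. It ran with Atp6v0d2 within groups (0.76). At 6 weeks it ran from 6.71 to 8.65 in WT, so those arrays weigh heavily in that correlation.

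Within groups Fhod3 moved with markers of neurons. Its correlation with the mean of 9 neuron markers was 0.75 within groups and 0.41 over all 18 arrays. With mature oligodendrocytes it was −0.74 and −0.34, and with oligodendrocyte precursors −0.79 and −0.18, in that order. The neuron level spread more at 6 weeks (6.99 to 8.70 in KO and 7.63 to 9.04 in WT) than at 12 weeks. The 6-week arrays therefore weigh heavily in the values within groups, and 12 weeks alone was not examined. The neuron level ran from 8.40 to 8.94 in KO and from 8.61 to 8.84 in WT at 12 weeks, and 6 of 9 neuron markers were lower in KO (median −0.08, 0 passing, 1 higher by an unadjusted p under 0.05). At 6 weeks all 9 were lower in KO (median −0.27, 0 passing). With the neuron level as a covariate the difference of Fhod3 at 12 weeks was −0.93, against −0.97 without it. The mean neuron level differed little between genotypes at 12 weeks (8.64 in KO and 8.73 in WT), so this covariate could change little there. The part of neuron content in the 12-week differences was not tested. The neuron markers correlated with Moxd1 by 0.08 and with Ostn by 0.16 within groups. With the covariate, Moxd1 and Ostn were at −1.59 and −1.46 at 12 weeks.

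The other marker lists had 0 genes passing at either stage in limma. By an unadjusted p under 0.05, astrocyte markers were higher in KO in 7 of 9 genes at 12 weeks (all genes 6.87%) and 6 of 9 at 6 weeks (all genes 3.26%), and their mean level ran from 8.72 to 9.15 in KO and from 8.27 to 8.47 in WT at 12 weeks. Higher in KO at 12 weeks by that measure were also 3 genes each of ependyma and of pericytes and fibroblasts and 2 of endothelium, and 1 precursor marker was lower at each stage. At 6 weeks Postn, a matrix gene of the pericyte and fibroblast list, was lower (−2.18 ± 0.47, adjusted p = 0.153). Their medians at 12 weeks were 0.32 for mature oligodendrocytes (9 genes), −0.16 for oligodendrocyte precursors (8), 0.54 for astrocytes (9), 0.53 for endothelium (6), 0.35 for pericytes and fibroblasts (9), 0.86 for choroid plexus (7) and 1.04 for ependyma (7). At 6 weeks they were −0.62, −0.30, 0.59, 0.24, 0.51, −0.81 and −0.0037 in that order. Fhod3 and Atp6v0d2 ran against the choroid plexus level within groups (−0.65 and −0.54), whose part in the result was not tested. Ostn ran against the level of mature oligodendrocyte markers within groups (−0.48), and the part of that level was not tested either. Striated muscle markers, measured because Ostn and Fhod3 are known from muscle, stayed low, with a mean level from 4.03 to 4.60 in KO and from 4.37 to 4.59 in WT at 12 weeks. Of these 8 genes 7 were lower in KO at 12 weeks (median −0.28) and 3 at 6 weeks (median 0.08), with 0 passing and 2 lower by an unadjusted p under 0.05 at 12 weeks.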

How the data were processed

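Per the labels' protocols, an RNeasy mini kit gave the RNA, a NuGEN Ovation Pico kit amplified it and biotin was the label. The deposited values of 241576 probe sets are on a log2 scale, with array medians from 5.26 to 5.41. Background correction, normalization and summarisation are not given in the sources used here. Probe sets were named from the platform annotation of the array design, and 212097 with 1 symbol were used. Of these symbols 2742 were updated through RefSeq (GRCm38.p6), and none of the 4475 probe sets with several symbols named one of the 4 genes. The lowest 20% of 20352 genes by mean were left out, which left 16281.

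With limma 3.58.1 (R 4.3.3), a single model of the 4 groups took in every one of the 18 arrays (14 residual and 5.61 prior degrees of freedom). Tests were two-sided, with Benjamini-Hochberg adjustment over all genes and a threshold of 0.05. "Rose", "fell" and "passed" mean this test. The steps were tested on simulated data. Genes are named as follows: the 4 genes, their nearest relatives, the 3 smallest p of each pathway list, and the 5 most similar genes, passing over clone and predicted names. Alternatives covered the probe-set summary, filter, normalization, array weights, sex, run, single arrays and a replicate block, and, added after seeing the data, a neuron covariate and the removal of 2 arrays. The members and lists were chosen with earlier results of these data known. Python 3.11.15, pandas 2.3.3 and matplotlib 3.10.9 were used for tables and plots.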

Additional observations from a re-analysis of the deposited data

How the results depend on the processing

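The number of arrays and the low signal of these genes limit precision. The 12-week values chose the 4 genes, so their direction says nothing of stability. Of 31 alternatives, 11 leave those values as they are by construction, and over all 31 the differences ran as follows (−2.27 to −1.15 for Atp6v0d2, −2.63 to −1.42 for Moxd1, −1.67 to −0.81 for Ostn and −1.07 to −0.48 for Fhod3). None of the 4 genes lay in the upper 50% of genes by level, so a filter at that point left them out. No gene of a pathway list passed in any of 33 settings. At 6 weeks no alternative brought a call for the 4 genes, with adjusted p from 0.142 to 1.00 (limma) over all of them. Trem2 itself did not pass at 6 weeks in the main fit (limma, adjusted p = 0.247). A missing call at that stage therefore does not show that a gene was unchanged. The causes of the shifts below were not tested.

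With the mean of probe sets, Fhod3 was −0.61 at 12 weeks and −0.19 for stage in KO, Ostn and Fhod3 were 0.0315 and −0.00047 at 6 weeks, and MiT/TFE factors had a median of 0.17 at 6 weeks. With the brightest probe set, Moxd1 was −2.63 at 12 weeks and 2.64 for stage in WT, Ostn was −0.81 at 12 weeks, and the medians were −0.0339 and −0.0463 for V-ATPase genes at 6 and 12 weeks, −0.21 for osteoclast genes at 12 weeks, 0.18 for MiT/TFE factors and −0.0595 for formins at 6 weeks and −0.15 for natriuretic genes at 12 weeks. With probe sets above background, Atp6v0d2 and Fhod3 were −1.15 and −0.48 at 12 weeks, Ostn and Fhod3 were 0.24 and −0.36 at 6 weeks, Fhod3 was 0.12 for stage in KO, and the medians were −0.0058 for osteoclast genes at 12 weeks and 0.24 and 0.0625 for MiT/TFE factors and formins at 6 weeks.

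Leaving out single arrays, Ostn ran from −0.33 to 0.049 and Fhod3 from −0.16 to 0.24 at 6 weeks. The copper list median then ran from −0.35 to 0.19 and the osteoclast median from −0.15 to 0.052 at 6 weeks, and the natriuretic median from −0.0199 to 0.18 at 12 weeks. The number of genes changed ran from 0 to 11 at 6 weeks and from 15 to 126 at 12 weeks, where the main counts were 7 and 70. At 12 weeks it was 42 after quantile normalization, 190 with array weights and 233 in the arrays of that stage alone, and at 6 weeks 0 in those alone. Chosen after seeing the data, removal of the 2 lowest-weighted arrays (KO replicate 2 and WT replicate 4 of 6 weeks) gave 215 at 12 weeks and 6-week medians of 0.0841, 0.0774 and 0.0365 for the copper, natriuretic and formin lists, and the neuron covariate gave 141 genes at 12 weeks.

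Arrays share replicate numbers across genotypes, but same-numbered arrays did not deviate together (correlations from −0.36 to 0.24 at 6 weeks and from 0.02 to 0.10 at 12 weeks), so they were not taken as pairs. With a replicate block 0 genes changed at 6 weeks and 21 at 12 weeks, and Fhod3 was −0.0379 at 6 weeks.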
